A study of Mus musculus with 3 samples.

Results

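The genes described here encode the proteins of the cytoplasmic ribosome. Members were taken by symbol: Rpl or Rps followed by a number and, where present, a final a, x, y or l, together with Rplp0, Rplp1, Rplp2 and Rpsa. A gene needed at least 1 probe set that the platform annotation assigns to that symbol alone, and a gene with several such probe sets took the one with the highest mean. The rule gave 59 genes of the 19938 measured, 37 of the large and 22 of the small subunit, on 215 probe sets. The RefSeq gene table of GRCm38.p6 holds 83 symbols of this form. Of the others, 16 stood only on probe sets annotated to several symbols and are described apart, and 8 were not analysed here.

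The cells came from the ureteric duct of CD-1 mouse embryos at 10.5 dpc (days post coitum, Theiler stage 18), of unknown sex, and the labels call their source the ureteric trunk. All embryos carried the transgene Tg(Hoxb7-EGFP)33Cos, in which the Hoxb7 promoter drives green fluorescent protein in the nephric duct and its derivatives. Cells were dissociated with trypsin from the dissected duct and sorted for fluorescence, with 1 duct per sample and no pooling, and total RNA was amplified in 1 round before hybridisation. The 3 samples form 1 group, numbered 1 to 3, with no second condition. Nothing in the labels says that they came from separate embryos or litters, so the p-values below reflect no more than how these samples vary, and that variation may be technical.

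The cytoplasmic ribosome has a large subunit, which joins amino acids and holds the exit tunnel of the new protein, and a small subunit, which reads the mRNA. Each subunit is built in the nucleolus from ribosomal RNA and 1 copy of nearly every ribosomal protein, and only the stalk proteins P1 and P2 enter in several copies. Many mRNAs of ribosomal proteins start with a run of C and T (C and U in the RNA), the terminal oligopyrimidine tract, through which growth signalling by mTOR and the binding protein Larp1 sets their translation. Mammalian genomes also hold many processed pseudogenes of these genes, so a probe on the array can match more than 1 copy.

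Runs of C and T near the annotated start can be read in the sequences of several members. The windows below are 30 bases long, from RefSeq promoters of GRCm38.p6, read 5′ to 3′ on the gene's strand, with the longest run of C and T within 25 bases of the annotated start in capitals. They are the 7 windows with the longest runs among the members that have a promoter in the table.
Rpl7a, chr2:26910788-26910817, plus strand: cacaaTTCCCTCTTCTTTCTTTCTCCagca
Rpl27a, chr7:109519186-109519215, plus strand: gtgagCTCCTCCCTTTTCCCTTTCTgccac
Rpl34, chr3:130730330-130730359, minus strand: acccgCCCCTTCCTTTTCCTCTTCCgggga
Rpl14, chr9:120571501-120571530, plus strand: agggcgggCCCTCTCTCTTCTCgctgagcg
Rpl4, chr9:64173362-64173391, plus strand: tgacaagTCTTTCCTTTTCCTgtgggagca
Rps25, chr9:44407689-44407718, plus strand: gggCTTCCTTTTTTTCCgacatcttagcga
Rps10, chr17:27635227-27635256, minus strand: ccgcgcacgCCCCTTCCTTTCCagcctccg
The run was 21 bases long in Rpl7a and 20 in Rpl27a and Rpl34. In Rpl4 and Rps25 the run lies wholly before the annotated start. The 3 members that were not above background on the arrays are shown next, with longest runs of 5 bases in Rpl10l and Rpl3l and 8 in Rpl39l. Members with high signals had runs as short or shorter, such as 3 bases in Rpl41, 4 in Rps4x and 5 in Rps28, against a median of 7 over the members' promoters.
Rpl10l, chr12:66284395-66284424, minus strand: aacagaaatttggCCTCCattttgcggctg
Rpl39l, chr16:10170203-10170232, plus strand: CTCTCCCTagctcccaggcctttccggatt
Rpl3l, chr17:24727821-24727850, plus strand: gctctgtcatttgaCCTCTggtgcctggtg

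Markers of the duct and of endothelium were above background on the arrays. All 14 measured duct markers were above background, among them Calb1, which encodes calbindin, at 11.69, 11.69 and 11.74 log2 units on arrays 1, 2 and 3. Of the other lists, 4 of 9 metanephric mesenchyme markers, 3 of 8 stromal markers, 10 of 10 endothelial markers, 1 of 8 red cell markers and 1 of 6 leukocyte markers were above background. Over all genes that share was 56.2%. Of the mesenchyme markers, Cited1, Crym, Uncx and Gdnf were above background, at means of 7.71, 6.48, 6.39 and 5.80, and Six2, Osr1 and Meox2 were not, at 5.07, 4.78 and 4.47. The embryonic globins Hbb-y and Hba-x stood high on array 1 alone, at 10.02 and 8.89, against 5.31 and 5.97 on array 2 and 5.45 and 5.84 on array 3. These are bulk samples, in which fewer cells of a type and less RNA per cell cannot be told apart.

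Ribosomal protein genes lay near the top of the signal range of the duct arrays. Their median over genes was 12.38 log2 units, with the middle of the distribution between 10.92 and 12.72, against a median of 6.04 for all genes. Array by array their median was 12.38, 12.29 and 12.37, against 6.04, 6.04 and 6.02 for all genes. A mean of 12 or more was reached by 39 of the 59 ribosomal protein genes, and by 106 (0.532%) of all genes. Of the 60 genes with the highest means, 30 were ribosomal protein genes.

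A gene was called above background where its signal minus the array's cutoff, the 95th percentile of olfactory and vomeronasal receptor probe sets, was above 0 in limma's one-sided test with an adjusted p under 0.05. By this test 56 of the 59 ribosomal protein genes were above background, against 56.2% of all genes, and 212 of their 215 probe sets were, against 56.4% of all probe sets. The large subunit had 34 of 37 genes above background and the small subunit 22 of 22. All 53 members without a final l in the symbol passed, and the 3 that did not pass were Rpl3l, Rpl10l and Rpl39l. Leaving out Rpl12, which is described below, the members that passed lay at least 2.05 log2 units above the cutoff, with limma adjusted p-values between 1.96e-06 and 9.89e-05. The deposited values repeat often: 8 members (13.6%) had the same value on all 3 arrays, against 50.8% of all genes. For these limma's p rests on no variation of the gene between arrays and cannot be relied on.

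**Figure D1:**
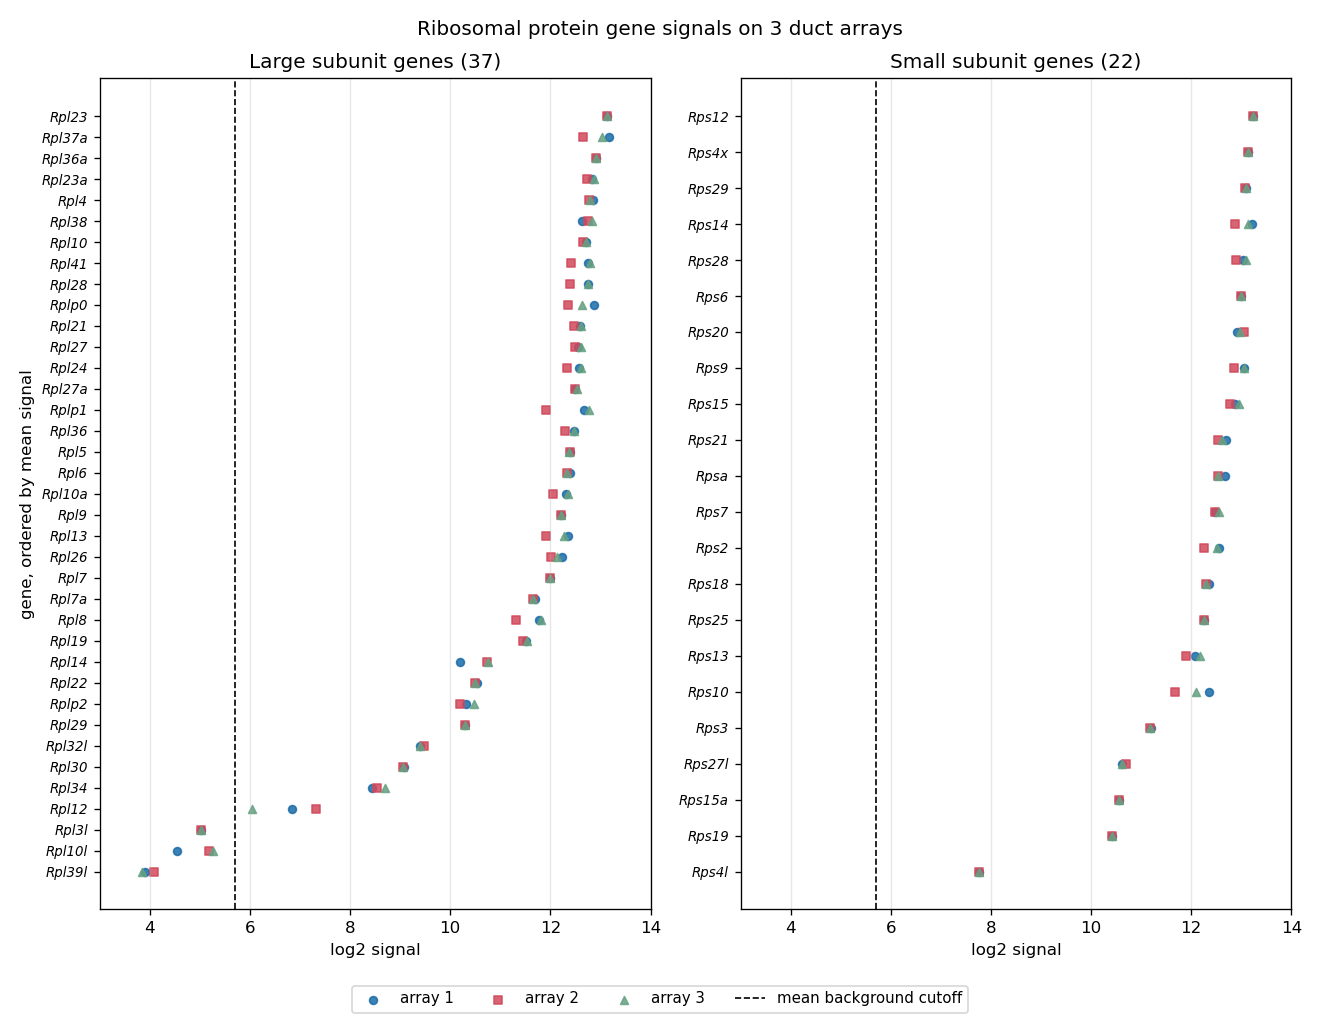
Log2 signal (x axis) of each ribosomal protein gene (y axis, ordered by mean within its subunit) on arrays 1, 2 and 3, with the large subunit left and the small subunit right; the dashed line is the mean background cutoff, 5.71. Most genes sit between 10 and 13.2, and Rpl3l, Rpl10l and Rpl39l sit left of the line.

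On the members' own probe sets, the 10 highest members were 8 genes of the small subunit and 2 of the large, Rpl23 and Rpl37a. Probe sets differ in affinity, so this order describes signals on these arrays and not amounts of transcript. Where 3 values are given for a gene, they are its log2 signals on arrays 1, 2 and 3. Rps12 had the highest signal on the members' own probe sets, at 13.22 on each array. With probe sets shared with other symbols added, Rpl30 lay higher, 7.55 log2 units above the cutoff against 7.52 for Rps12. Rpl37a and Rpl41 of the large subunit then lay 7.34 and 7.31 above it, over Rps28 at 7.30. Rpl35a, which has only shared probe sets, averaged 13.08. The split of the highest genes between subunits therefore depended on the choice of probe sets. In Drosophila, Rps12 is known for its part in competition between cells with unequal ribosomal gene dose. Rps4x, the X-linked copy of the small subunit protein eS4, followed at 13.13 on each array.

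Rpl23, a large subunit protein that can bind Mdm2 and so link ribosome assembly to p53, measured 13.12, 13.12 and 13.13 on arrays 1, 2 and 3. Rps29 of the small subunit measured 13.09, 13.07 and 13.10. Neither gene differed between arrays by more than a few hundredths of a log2 unit. Rps14, whose loss of 1 copy underlies the anaemia of the human 5q- syndrome, measured 13.21, 12.87 and 13.14, lowest on array 2.

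Rps28, which lies at the mRNA exit, measured 13.04, 12.89 and 13.09, also lowest on array 2. Rps6, the ribosomal protein phosphorylated by S6 kinase downstream of mTOR, measured 12.99, 13.00 and 12.99. Rps20, near the mRNA entry, measured 12.92, 13.06 and 12.98. Rps6 was flat, with the same value repeated on arrays 1 and 3, and Rps20 was highest on array 2. Rps9, of the small subunit body, measured 13.05, 12.85 and 13.05, and Rpl37a of the large subunit measured 13.16, 12.66 and 13.04; both were lowest on array 2.

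The order at the other end also depended on the choice of probe sets. Rpl29, without which mice grow slowly, measured 10.29 on each array. Rpl30 of the large subunit measured 9.07, 9.06 and 9.06. Rpl34, which holds one of the longest pyrimidine runs printed above, measured 8.45, 8.53 and 8.70. Rpl29 repeats the same value on all arrays and Rpl30 on arrays 2 and 3. Rpl34 was highest on array 3, and each of the 3 genes is measured by 1 probe set of its own. They lay 4.58, 3.36 and 2.85 log2 units above the cutoff on these probe sets, and 6.22, 7.55 and 6.83 above it with the probe sets shared with another symbol added.

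Rpl12, a protein at the base of the stalk, was the exception among the lowest members. Its values were 6.85, 7.31 and 6.03, highest on array 2 and lowest on array 3, the largest range of any member (1.28). It lay 1.02 log2 units above the cutoff, with a limma adjusted p of 0.0334. The call was lost with the 99th percentile as cutoff (adjusted p = 0.322), with a cutoff 1 log2 unit higher (adjusted p = 1) and without array 2 (adjusted p = 0.109). At these higher cutoffs 55 of the 59 members passed, against 36.1% of all genes at the 99th percentile and 28.4% at the cutoff 1 unit higher. Over the 13 alternatives its adjusted p ran between 2.74e-23, without array 3, where limma fitted one common spread, and 1. Its only probe set of its own lists no RefSeq transcript of the gene, and with the probe sets shared with another symbol added its difference from the cutoff was 7.28.

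The signals of the large subunit genes had a lower median than those of the small subunit. The median was 12.23 over 37 large subunit genes and 12.54 over 22 small subunit genes, a difference of -0.31. On arrays 1, 2 and 3 the difference was -0.27, -0.45 and -0.21 (SD 0.12, n = 3), and 3 arrays cannot go below a two-sided exact p of 0.25. Without the l forms and the stalk proteins it was -0.23, between medians of 12.37 and 12.60. The distributions overlap in part: the quartiles were 10.51 and 12.62 in the large subunit and 12.04 and 12.99 in the small. Several probe sets were available for 22 of the 37 large and 17 of the 22 small subunit genes. Over all members, the median was 12.55 with several probe sets and 10.46 with 1, and the subunits were not matched for this. The difference between subunits is one between probe set signals and was not tested.

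The stalk of the large subunit recruits the elongation factors, and its 3 proteins are encoded by Rplp0, Rplp1 and Rplp2. Rplp0, the base to which the others bind, measured 12.88, 12.35 and 12.64. Rplp1 measured 12.67, 11.91 and 12.76, and Rplp2 measured 10.31, 10.20 and 10.46. All 3 stalk genes were lowest on array 2, by the most in Rplp1. The probe set of Rplp2 lists no RefSeq transcript of the gene. Rpsa, the small subunit protein also known as the laminin receptor and mutated in human isolated congenital asplenia, measured 12.67, 12.54 and 12.54, highest on array 1.

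The symbols of 6 members end in l, a letter given to copies of a ribosomal protein gene. Of the 6, 3 were above background and 3 were not, a share close to the 56.2% of all genes. Rpl3l, the form of heart and skeletal muscle, measured 5.03 on each array. Rpl10l, a retrogene that stands in for the X-linked Rpl10 in male meiosis, measured 4.54, 5.17 and 5.27. Rpl39l, known from testis, measured 3.90, 4.09 and 3.84. The limma adjusted p was 1 for each of the 3.

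The partners of these forms gave signals far above the cutoff. Rpl10, which joins the large subunit late in assembly, measured 12.72, 12.66 and 12.72. Rpl3, near the peptidyl transferase centre, measured 11.95 on each array, and Rpl39, in the exit tunnel, measured 12.66, 12.80 and 12.80. The values of Rpl3 and Rpl39 come from probe sets annotated to further symbols. The levels of a form and its partner rest on different probe sets and were not tested against each other.

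Of the forms above background, Rps27l, a p53 target in human cells, measured 10.61, 10.71 and 10.61, and its partner Rps27 measured 12.13, 11.75 and 12.26 on a probe set shared with another symbol. Rps27l was highest and Rps27 lowest on array 2. Rpl32l measured 9.40, 9.48 and 9.40, and the probe set that names Rpl32l together with Rpl32 measured 12.64, 12.52 and 12.62. Rps4l, a transcribed pseudogene in RefSeq, measured 7.76 on each array, and its other probe set measured 7.07, 6.94 and 7.58, against 13.13 for Rps4x. Signals of a copy and its parent gene cannot be separated where a probe matches both, so the signals of these 3 forms are uncertain.

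**Figure D2:**
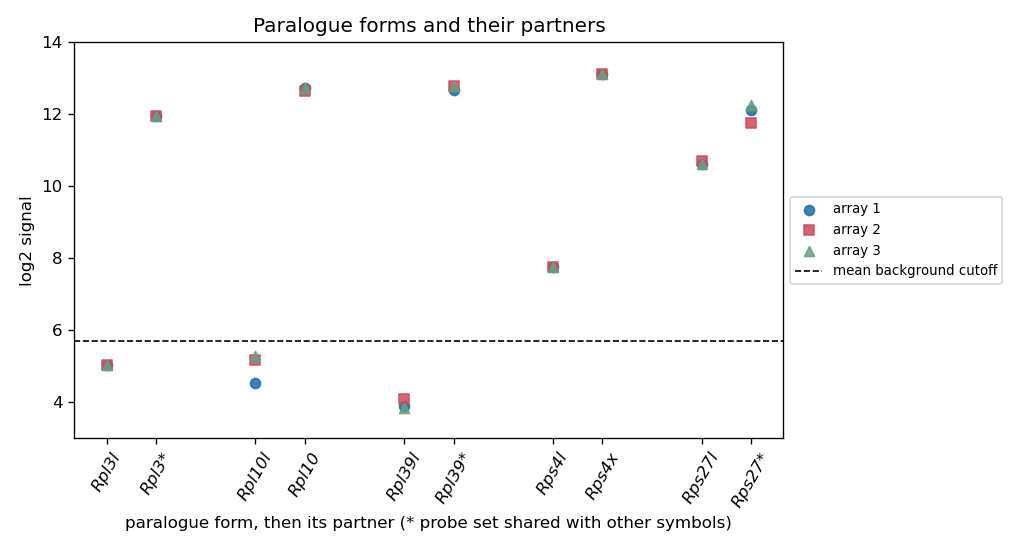
Log2 signal (y axis) on arrays 1, 2 and 3 for 5 l forms, each left of its partner; an asterisk marks a partner measured on probe sets shared with other symbols, and the dashed line is the mean background cutoff. Rpl3l, Rpl10l and Rpl39l lie below the line, Rps4l and Rps27l above it, and all 5 partners above 11.

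Further symbols of the same form stood only on probe sets annotated to several symbols. For the 15 with no second ribosomal protein symbol, the shared probe set with the highest mean was taken. All 15 were above background by limma's test, against 56.2% of all genes, between a mean of 11.81 for Rps23 and 13.08 for Rpl35a. Rpl11, which together with Rpl5 binds Mdm2 when ribosome assembly fails, measured 12.83, 12.73 and 12.67. The lowest shared probe set of Rpl13a averaged 5.05, under the mean cutoff of 5.71, and that of Rpl31 averaged 7.01. Rps26, mutated in human Diamond-Blackfan anaemia, measured 13.17, 12.93 and 13.12, lowest on array 2. Rps16 measured 12.77, 12.48 and 12.97, also lowest on array 2. What the other symbols on these probe sets contribute was not tested.

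The agreement between probe sets of one ribosomal protein gene varied widely. The spread, taken as the highest minus the lowest probe set mean, had a median of 0.49 log2 units over the 39 such members, and 0.88 over 960 other genes. A spread over 1 log2 unit occurred in 10 of the 39 members, against 44.8% of all genes with several probe sets, and in 41 of the 79 other genes with a mean of 11 or more. Large and small subunit members had median spreads of 0.66 (22 genes) and 0.48 (17 genes). The members had more probe sets each, with a median of 4 against 2 in other genes, and up to 14 in Rps12. In the 8 members with exactly 2 probe sets the median spread was 1.07, and 4 of the 8 exceeded 1 log2 unit. Other genes with exactly 2 probe sets were not summarised apart, so members and other genes were not compared at equal numbers of probe sets.

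Rpsa had the widest spread, 2.68, with probe set means of 12.58, 11.69, 11.26, 10.61 and 9.90. Its lowest probe set measured 10.02, 9.42 and 10.26 and its highest 12.67, 12.54 and 12.54, so array 2 was 0.72 log2 units below the mean of the others on the lowest probe set and 0.069 below on the highest. Rps9 followed at 1.78, with means of 12.98 and 11.21, and Rplp0 at 1.69, with 12.62 and 10.93. In Rpsa, Rps9 and Rplp0 every probe set was lower on array 2 than the mean of the others.

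The next widest spreads were 1.48 in Rpl7a, 1.37 in Rpl5, 1.34 in Rpl27a and 1.33 in Rpl23, all of the large subunit. Rps21, Rpl13 and Rps15 had spreads of 1.25, 1.21 and 1.02. All of these probe sets were above background. Rpl7a measured 11.70, 11.66 and 11.66 on its highest probe set and 10.36, 9.90 and 10.32 on its lowest. Rpl5 measured 12.38, 12.38 and 12.37 on its highest and 11.01 on each array on its lowest. The lowest probe set of Rpl7a was lower on array 2. The highest probe set of Rpl5 repeats the same value on arrays 1 and 2, and its lowest on all arrays.

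Rpl27a measured 12.49, 12.49 and 12.53 on its highest probe set and 11.17, 10.89 and 11.43 on its lowest, and 7 of its probe sets lay between. Rpl23 measured 11.81, 11.81 and 11.77 on its lower probe set. The lowest probe set of Rpl27a varied more between arrays than its highest. Rpl23 was nearly flat on both of its probe sets, each with the same value repeated on arrays 1 and 2. Rps21 of the small subunit measured 12.70, 12.53 and 12.62 on its higher probe set and 11.38, 11.25 and 11.46 on its lower. Rps15 measured 12.87, 12.78 and 12.96 on its highest and 11.92, 11.54 and 12.07 on its lowest. Both genes were lowest on array 2 on each of these probe sets.

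The narrowest spreads were 0 in Rpl41, whose 3 probe sets hold the same 3 values, 0.03 in Rpl38 and 0.06 in Rpl27. Rpl38 is required for normal patterning of the axial skeleton in mice. Over all members, 21 probe sets of 5 genes repeat the values of another probe set of the same gene, and such probe sets are not separate measurements.

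**Figure D3:**
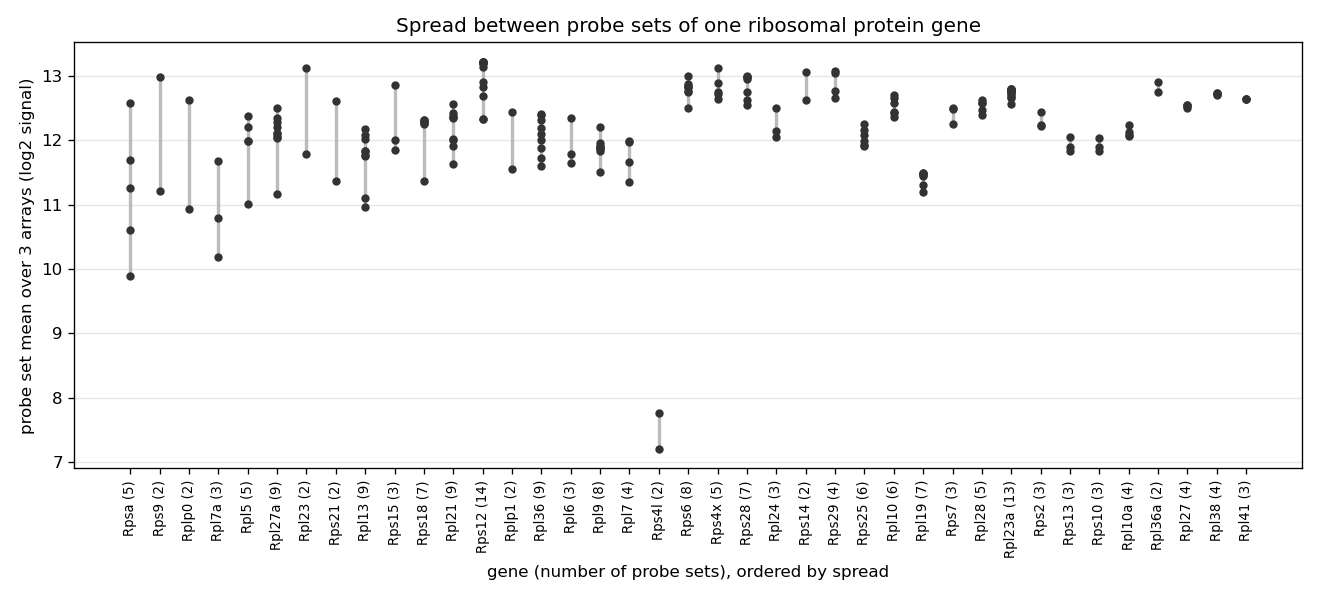
Mean log2 signal over 3 arrays (y axis) of every probe set of the 39 ribosomal protein genes with several, with the number of probe sets in parentheses, ordered by spread (x axis); a grey bar joins the highest and lowest. Rpsa spans 2.68 log2 units, and the 3 probe sets of Rpl41 coincide.

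One array stood apart for these genes, a pattern singled out after the values were seen. On array 2, 40 of the 59 ribosomal protein genes were lower than the mean of arrays 1 and 3, 11 were higher and 8 were equal. Over all genes 24.3% were lower, 4851 genes against 4958 higher, the rest being equal. Of the 38 members with a single lowest array, 29 had it in array 2, 5 in array 1 and 4 in array 3. Over all genes with a single lowest array, 2069 of 6709 had it in array 2. Among such other genes with a mean of 11 or more, 42 of 173 did. The median difference of array 2 was small, -0.029 log2 units, with a mean of -0.088. The median lay between -0.064 and -0.041 with other probe set choices or against 1 array alone. On array 2, 9 members were at least 0.3 lower and 1, Rpl12, at least 0.3 higher, which was not counted over all genes.

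The 9 members at least 0.3 log2 units lower on array 2 belonged to the large subunit, apart from Rps10 and Rps14. The members as a whole hold 37 large and 22 small subunit genes. Besides Rplp1, Rplp0 and Rpl37a, given above, these included Rps10, a protein at the mRNA entry that is ubiquitinated on stalled ribosomes, at 12.35, 11.68 and 12.09. Rpl8, near the peptidyl transferase centre, measured 11.77, 11.32 and 11.81. Rpl13, mutated in a human skeletal dysplasia, measured 12.35, 11.92 and 12.28, and all 9 of its probe sets were lower on array 2. Rpl41, whose product is among the shortest proteins of the cell, measured 12.75, 12.41 and 12.79, and Rpl28 measured 12.75, 12.40 and 12.76. In each of these genes array 2 was the lowest.

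Not every member followed. Rpl14 was low on array 1, at 10.19, 10.74 and 10.74. Rps12 had none of its 14 probe sets lower on array 2 and Rpl5 none of its 5. Every probe set of Rps12 and most of those of Rpl5 repeat the same value on all arrays, so they show no direction. On their highest probe sets, the l forms were lower on array 2 in 0 of 6, 4 being higher. Of these 4, Rpl10l and Rpl39l were not above background. The equal forms, Rpl3l and Rps4l, repeat the same value on all arrays. On the other probe set of Rps4l, array 2 differed from the mean of the other arrays by -0.39 log2 units. Among the 39 members with several probe sets, 27 had every probe set lower on array 2, 6 had some and 6 had none, which was not counted for other genes. The 6 with none include Rps12, Rpl7 and Rpl36a, whose probe sets each hold the same value on all arrays. Over the 215 probe sets, 156 were lower, 21 higher and 38 equal. Of all probe sets 25.1% were lower, with 5462 lower, 5518 higher and 10809 equal. At a mean of 11 or more, 145 member probe sets were lower, 14 higher and 34 equal. Other probe sets at that level had 99 lower, 162 higher and 40 equal.

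Members with several probe sets were lower on array 2 in 31 of 39 genes (median -0.069), and those with 1 probe set in 9 of 20 (median 0). Members with several probe sets also had the higher signals, with a median of 12.55 against 10.46 for those with 1. Among genes of like brightness, 32 of 39 members with a mean of 12 or more were lower on array 2 (median -0.13), against 20 of 67 other genes (median 0.019). At a mean of 11 or more, 72 of 227 other genes were lower, 128 higher and 27 equal.

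The endothelial markers were lower on array 2 as well. All 10 were lower, by a median of 0.69 log2 units, and their median on arrays 1, 2 and 3 was 8.02, 7.10 and 8.01. Emcn, a sialomucin of endothelium, measured 10.40, 9.28 and 10.53. Duct markers were lower in 8 of 14 (median -0.033), and mitochondrial ribosomal protein genes in 36 of 77 (median 0). The part of the endothelial signal in the lower values of ribosomal protein genes was not tested.

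**Figure D4:**
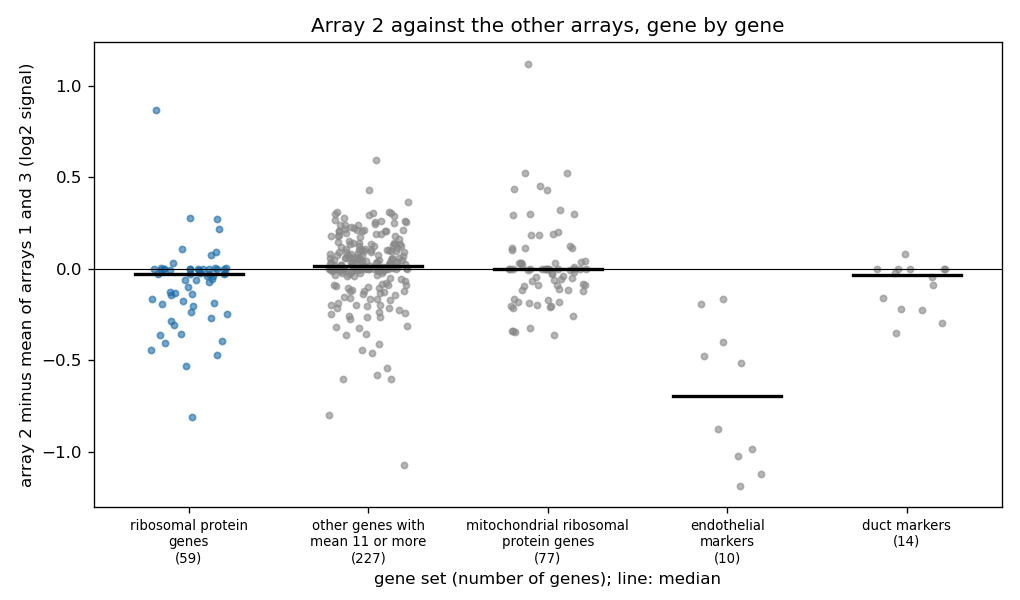
Log2 signal on array 2 minus the mean of arrays 1 and 3 (y axis) for each gene of 5 sets (x axis, number of genes in parentheses); black bars are medians. Ribosomal protein genes reach -0.81 in Rplp1, with Rpl12 at 0.87, and the median of the 10 endothelial markers is -0.69.

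Of the ribosomal protein genes and relatives whose symbols have another form, 3 of 10 listed were measured. Rps3a1 of the small subunit measured 12.37, 12.47 and 12.37. Fau, which encodes a ubiquitin-like protein fused to the small subunit protein eS30, measured 11.55, 10.98 and 11.60. Rpl7l1, a nucleolar relative of Rpl7, measured 8.04 on each array. Fau was lowest on array 2 and Rps3a1 highest. Rps3a1 and Fau lay in the range of the members, and Rpl7l1 lay lower.

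Mitochondrial ribosomal proteins are encoded in the nucleus and build a separate ribosome inside mitochondria. Of 77 measured genes, 76 were above background, against 56 of the 59 cytoplasmic ones and 56.2% of all genes. The median was 12.38 for the cytoplasmic and 7.99 for the mitochondrial genes. The mitochondrial genes ranged from 5.67 for Mrps27, which was not above background, to 10.59 for Mrps18c, and none reached 12. Mrps21 and Mrpl39 had the next highest means, 10.31 and 10.25, and Mrpl38 and Mrpl4 the next lowest, 6.45 and 6.48.

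Transcripts other than ribosomal protein mRNAs that begin with a terminal oligopyrimidine tract, such as those of elongation factors, were listed apart. All 18 measured of 24 listed were above background, against 56.2% of all genes, with a median of 11.005. The highest were Gas5, a host gene of small nucleolar RNAs, at 13.36, Eef1a1, the elongation factor that delivers tRNAs, at 13.29, and Tpt1, a growth-associated protein, at 13.18. The lowest were Btf3 (9.82), Eef1d (9.70) and Eif3f (9.53). On array 2, 5 of the 18 were lower and 7 higher.

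All 36 genes of ribosomal RNA transcription and processing were above background, against 56.2% of all genes, with a median of 8.91. The highest were Ncl (nucleolin, 12.03), Fbl (fibrillarin, which methylates ribosomal RNA, 11.23) and Utp3 (11.10). The lowest were Polr1e (6.35), Taf1c (6.22) and Polr1b (6.07), all 3 of RNA polymerase I transcription.

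All 30 measured of 32 listed genes of ribosome assembly and export passed, against the same 56.2%, with a median of 8.24. Xpo1, the export receptor that carries both subunits out of the nucleus, had the highest mean, 10.91, followed by Bccip (10.20) and Brix1 (10.12). Rpf2 (6.86), Rrp12 (6.40) and Bop1 (6.04) had the lowest. On array 2, 6 of these 30 genes were lower than the mean of the other arrays and 18 higher. Of the 36 ribosomal RNA genes, 8 were lower and 16 higher.

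Regulators that act on ribosomal protein mRNAs or answer to ribosome stress passed in 14 of 14 measured of 17 listed, against 56.2% of all genes, with a median of 7.31. Eif4e, the cap-binding protein, averaged 10.23, Mdm4 8.74 and Larp1 8.36. Mlst8 and Rptor, subunits of the mTOR complex, averaged 6.64 and 6.48, and Mycn, a growth-promoting transcription factor, 6.49. Signals of different probe sets do not rank these genes by amount.

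**Figure D5:**
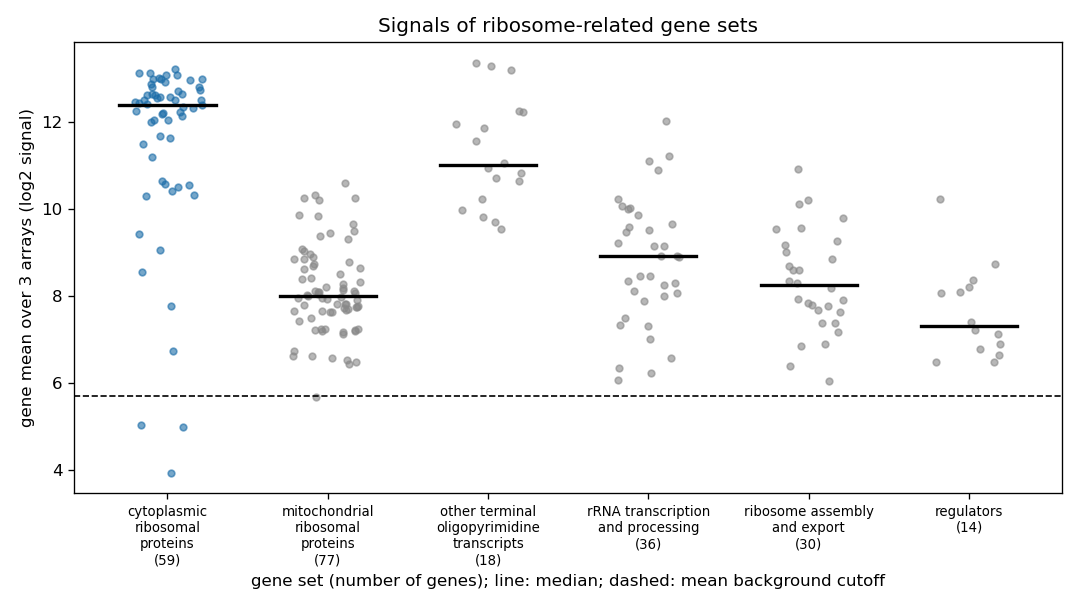
Mean log2 signal over 3 arrays (y axis) of each gene in 6 sets (x axis, number of genes in parentheses), with black bars for medians and the mean background cutoff dashed. Cytoplasmic ribosomal protein genes have a median of 12.38, above the medians of the other sets, which run from 7.31 for the regulators to 11.005 for the other terminal oligopyrimidine transcripts.

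The promoters of the members were searched for sequence features that the symbol rule did not use, and no feature was tested. RefSeq promoters of GRCm38.p6, 250 bases before to 50 bases after an annotated start, were found for 47 of the 59 members, 56 promoters in all, among 32851 promoters of all genes. A run of at least 8 C or T on the gene's strand within 25 bases of the start was present in 23 of the 56 (41.1%), against 19.7% of all promoters. The median longest run was 7 bases in the members' promoters and 5 in all promoters. An annotated start can differ from the one used in these cells, and a match to letters is a description and not a site.

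Of 4 short motifs searched on both strands, CCGGAAG, the core bound by ETS factors, occurred in 19 of the 56 promoters (33.9%), against 8.86% of all promoters. Its reverse complement begins with letters that can also belong to a pyrimidine run. GGGCGG, the core of the GC box, occurred in 55.4%, against 35.7%, with a median GC content of 57.0% in the members' promoters and 52.7% in all. TATAAA, the TATA box, occurred in 10.7%, against 13.6%, and AAGATGGC, the core bound by Yy1, in 3.57%, against 2.75%. Rps21, Rps18 and Rpl39l each held 2 matches to CCGGAAG, shown in capitals in the 250 bases before the start, read 5′ to 3′ on the gene's strand.
Rps21, chr2:180257129-180257378, plus strand: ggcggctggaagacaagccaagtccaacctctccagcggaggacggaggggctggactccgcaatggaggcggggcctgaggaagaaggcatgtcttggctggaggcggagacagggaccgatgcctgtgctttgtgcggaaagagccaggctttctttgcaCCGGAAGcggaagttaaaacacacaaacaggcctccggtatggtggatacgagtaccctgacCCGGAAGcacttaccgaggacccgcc
Rps18, chr17:33955666-33955915, minus strand: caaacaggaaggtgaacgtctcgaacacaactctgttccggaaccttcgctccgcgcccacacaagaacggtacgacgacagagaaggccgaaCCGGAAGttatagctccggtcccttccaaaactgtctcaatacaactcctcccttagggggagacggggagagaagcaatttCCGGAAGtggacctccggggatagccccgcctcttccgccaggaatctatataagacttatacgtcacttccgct
Rpl39l, chr16:10169978-10170227, plus strand: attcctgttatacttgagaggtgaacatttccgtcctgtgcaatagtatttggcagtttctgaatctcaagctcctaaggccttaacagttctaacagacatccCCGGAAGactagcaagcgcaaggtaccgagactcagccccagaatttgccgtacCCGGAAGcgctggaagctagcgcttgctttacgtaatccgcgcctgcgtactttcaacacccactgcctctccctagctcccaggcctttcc
Rps21 and Rps18 measured above 12 on their highest probe sets, and Rpl39l was below the cutoff on all arrays, with the same number of matches.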

How the data were processed

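The deposited table holds log2 signals, 1 for each of 35557 probe sets on each of 3 arrays, summarised by the authors; the log2 scale was read from the values. Per the submitters' processing notes, Affymetrix Expression Console was used; its algorithm, version, background correction and filters were not given in the sources used here. The values were used as deposited. The platform annotation gave 21789 probe sets 1 symbol, 1621 several and 12147 none. Of the first, 21698 matched the GRCm38.p6 gene table. No build is named for the array, so probe sets have no coordinates here.

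Background was the 95th percentile, per array, of 1212 olfactory and vomeronasal receptor probe sets (5.69, 5.73 and 5.70). Values minus this cutoff entered an intercept fit with limma 3.58.1 under R 4.3.3. One-sided p-values were Benjamini-Hochberg adjusted over all 21789 single-symbol probe sets, with a threshold of 0.05. The prior had 1.13 degrees of freedom and an SD of 0.035. The false rate of the calls is not known. As a check, a small part of the probe sets was replaced by simulated ones, and the rest stayed as deposited. The simulated ones had a spread of 0.116, the median over probe sets whose values were not all equal. The fit called 92% of those 0.25 log2 units above the cutoff, 100% of those 0.5 or 1 unit above and 0% of those 0.5 units below. Precision is limited by the number of arrays.

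The members and lists were chosen with earlier results of these data known, and the list of mitochondrial ribosomal proteins was added after seeing the data. Values on every array are given for paralogue forms and their partners, the stalk proteins and Rpsa, the 10 highest and 10 lowest means, the 10 largest ranges over arrays, the 10 largest spreads between probe sets and the members not above background. Of each list other than markers, the 3 highest and 3 lowest means are given. The planned protein identity between paralogues was not computed, since no protein table was used here. Promoters and sequences come from RefSeq. Summaries were made in Python 3.11.15 with pandas 2.3.3. The alternatives were other cutoffs, other choices of probe set, other estimates of the spread, a filter on low values and leaving out each array.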

Additional observations from a re-analysis of the deposited data

Results flagged for a closer look

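Ribosomal protein symbols that stand only on probe sets annotated to several symbols lie outside the members, and 15 of the 15 with no second ribosomal protein symbol were above background by limma's test (adjusted p under 0.05), against 56.2% of all genes. The shared probe set with the highest mean was used for each. Their means ran from 11.81 for Rps23 to 13.08 for Rpl35a.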

How the results depend on the processing

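The count of ribosomal protein genes above background stayed between 55 and 56 of 59 with the members' own probe sets under the other cutoffs, probe set choices, spread estimates and without each array in turn. The share of all genes above background was 36.1% with the 99th percentile as cutoff and 28.4% with a cutoff 1 log2 unit higher, and Rpl12 was the member that lost its call under these settings and without array 2. With several-symbol probe sets added, 71 of 74 genes passed. The paralogue forms kept a count of 3 under every alternative run. The large minus small subunit difference stayed negative, from -0.34 to -0.21 over the probe set and member choices and from -0.33 to -0.25 without each array. The median signal was 11.61 with the lowest probe set of each gene, 12.002 with the mean of its probe sets and 12.55 with several-symbol probe sets added, and 12.34 to 12.38 without each array. The median spread between probe sets was 0.62 with several-symbol probe sets added and 0.48 to 0.49 without each array. The members lower on array 2 numbered 40 to 41 of 59 with other probe set choices, 52 of 74 with several-symbol probe sets added, and 36 against array 1 or array 3 alone; these comparisons of arrays, the spread alternatives and those for the forms were chosen after seeing the data. No paired analysis was possible because the samples form 1 group.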
